A study of Mus musculus with 16 samples.

Results

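The 10 genes of the vascular endothelial growth factor (VEGF) and angiopoietin systems described here were chosen by name, as the receptors, co-receptor and ligands of these pathways. They were *Kdr*, *Flt1*, *Flt4*, *Nrp1*, *Tek*, *Tie1*, *Vegfa*, *Pgf*, *Angpt1* and *Angpt2*, and all 10 were found among the 55487 genes measured in bulk cortex RNA. The cortex came from 16 male wild-type C57Bl6 mice aged 2 months that received an i.p. injection of LPS at 2 mg/kg, or of PBS, on each of 2 days, at zeitgeber time 1 (ZT1, shortly after lights on) or ZT13 (shortly after lights off). Tissue was taken 24 hours after the last injection, so time of injection and time of collection cannot be told apart. Each time had 3 PBS mice and 5 LPS mice. The LPS and PBS mice did not differ in genotype, and the study's methods describe its C57BL/6J mice as littermates bought from a supplier, without saying which of them shared a litter.

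VEGF-A, the product of *Vegfa*, is a secreted factor that signals to endothelial cells mainly through the tyrosine kinase receptor VEGFR2, encoded by *Kdr*. VEGFR1, encoded by *Flt1*, binds the same ligand tightly but signals weakly and is often described as a decoy, and it is also the receptor of placental growth factor, encoded by *Pgf*. VEGFR3 (*Flt4*) is the receptor of the lymphatic VEGF ligands, and neuropilin 1 (*Nrp1*) is a co-receptor that also serves neurons. In the second system, angiopoietin 1 (*Angpt1*) activates the TIE2 receptor (*Tek*) and stabilises vessels, angiopoietin 2 (*Angpt2*) opposes it in many settings, and TIE1 (*Tie1*) is an orphan partner of TIE2. In the brain, the receptors are largely endothelial, while *Vegfa* and *Angpt1* are made by other cells as well, astrocytes and perivascular cells among them.

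RefSeq promoter windows (GRCm38.p6) were found for 8 of the 10 genes, *Angpt1* and *Angpt2* aside, with 2 windows each for *Vegfa* and *Pgf*. The 250 bases upstream of the RefSeq start are shown for the genes that the results turn on. These are *Kdr* and *Flt1* for the difference between times, *Flt4* for its rise after LPS and *Vegfa* for its fall. The RefSeq starts can differ from the gene spans given below, and the windows of *Flt4*, *Nrp1* and *Pgf* lie wholly inside those spans. Capitals mark the 4-letter ETS core, GGAA or its reverse complement TTCC. ETS factors such as ERG and FLI1 are regulators of endothelial genes.
Kdr (chr5:75978456-75978705, minus strand): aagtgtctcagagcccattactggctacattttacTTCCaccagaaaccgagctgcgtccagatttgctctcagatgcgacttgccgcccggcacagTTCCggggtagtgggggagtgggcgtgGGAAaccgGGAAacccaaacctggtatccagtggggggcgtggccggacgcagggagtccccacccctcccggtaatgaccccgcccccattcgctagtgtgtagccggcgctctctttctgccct
Flt1 (chr5:147726012-147726261, minus strand): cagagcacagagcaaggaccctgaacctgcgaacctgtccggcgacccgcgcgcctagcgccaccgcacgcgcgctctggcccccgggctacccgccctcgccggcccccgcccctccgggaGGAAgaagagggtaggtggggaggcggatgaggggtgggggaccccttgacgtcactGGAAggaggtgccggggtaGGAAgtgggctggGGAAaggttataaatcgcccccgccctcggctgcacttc
Flt4 (chr11:49609429-49609678, plus strand): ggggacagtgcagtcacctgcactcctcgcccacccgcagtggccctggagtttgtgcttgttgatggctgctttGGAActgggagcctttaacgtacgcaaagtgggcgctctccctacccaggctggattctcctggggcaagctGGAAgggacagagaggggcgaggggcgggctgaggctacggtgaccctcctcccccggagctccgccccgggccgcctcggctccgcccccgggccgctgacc
Vegfa (chr17:46032378-46032627, minus strand): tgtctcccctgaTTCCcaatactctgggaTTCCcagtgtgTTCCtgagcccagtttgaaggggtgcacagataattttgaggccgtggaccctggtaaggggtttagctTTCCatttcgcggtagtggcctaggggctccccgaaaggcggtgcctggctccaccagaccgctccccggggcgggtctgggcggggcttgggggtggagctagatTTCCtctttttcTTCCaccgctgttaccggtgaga
The core occurred 4 times in the *Kdr* window, 4 times in *Flt1*, 2 times in *Flt4* and 6 times in this *Vegfa* window. It was present in 8 of the 10 member windows, and in 93.4% of the 32851 promoter windows in the table, where the median was 3. The *Tek* window held 2 cores, *Nrp1* 4 and *Tie1* 7, and both *Pgf* windows held none. GC content was 61.6% for *Kdr*, 70.4% for *Flt1*, 68.4% for *Flt4* and 59.2% for *Vegfa*, against a median of 52.4% over all windows. On both strands, the E-box CACGTG (6.02% of all windows), the ETS motif CAGGAAG (10.8%) and the forkhead motif TGTTTAC (3.17%) had no match in the member windows. The hypoxia response core ACGTG, which CACGTG contains, was found in 16.6% of all windows and in 1 member window, the other window of *Vegfa*. That window (chr17:46025164-46025413) lies inside the *Vegfa* gene, and the *Vegfa* window shown had no match.

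Levels are given in CPM, the reads counted on a gene per 1000000 reads counted on all genes of the sample. The spacing of the low values put the depth at 20251840 to 29112760 reads a sample, at which 3 reads amounted to 0.103 to 0.148 CPM. Treatment was taken from the sample titles, since a treatment field contradicted 12 of the 16. *Gfap*, an astrocyte gene that rises with gliosis, ranged from 111 to 123 CPM in the 6 mice with PBS in the title and from 572 to 1134 CPM in the 10 with LPS. Differences are log2 fold changes of CPM plus 0.5, which understate the change of low genes, with limma's SE and a p adjusted over the 18859 genes that passed a minimum of 1 CPM in at least 3 samples. All 10 members passed. A gene is said to have risen or fallen where this adjusted p was under 0.05. The p-values measure the spread between the mice of each group, some of which may be littermates. Choroid plexus transcripts (*Ttr*, *Folr1*, *Kl* and *Clic6*) summed to 11.5 to 960 CPM, with low and high samples in every group.

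After LPS, the receptors *Flt4* and *Tie1* and the ligands *Angpt2* and *Pgf* were higher and *Vegfa* was lower at both times. At ZT1, 4 of the 10 genes rose and 2 fell, *Flt1* and *Vegfa*, where 11.1% of all genes tested rose and 5.15% fell. At ZT13, 8 rose and 1 fell, where 19.2% of all genes rose and 9.40% fell. The further genes that rose at ZT13 were *Kdr*, *Tek* and *Nrp1*, which had not passed the test at ZT1, and *Flt1*, which had fallen there. The median log2 fold change of the 10 was 0.08 at ZT1 and 0.48 at ZT13, against 0.04 and 0.05 over all genes. By another scaling, median-of-ratios factors, 54.4% rather than 68.2% of the genes called at ZT1 were higher, and 50.1% rather than 67.2% at ZT13.

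**Figure D1:**
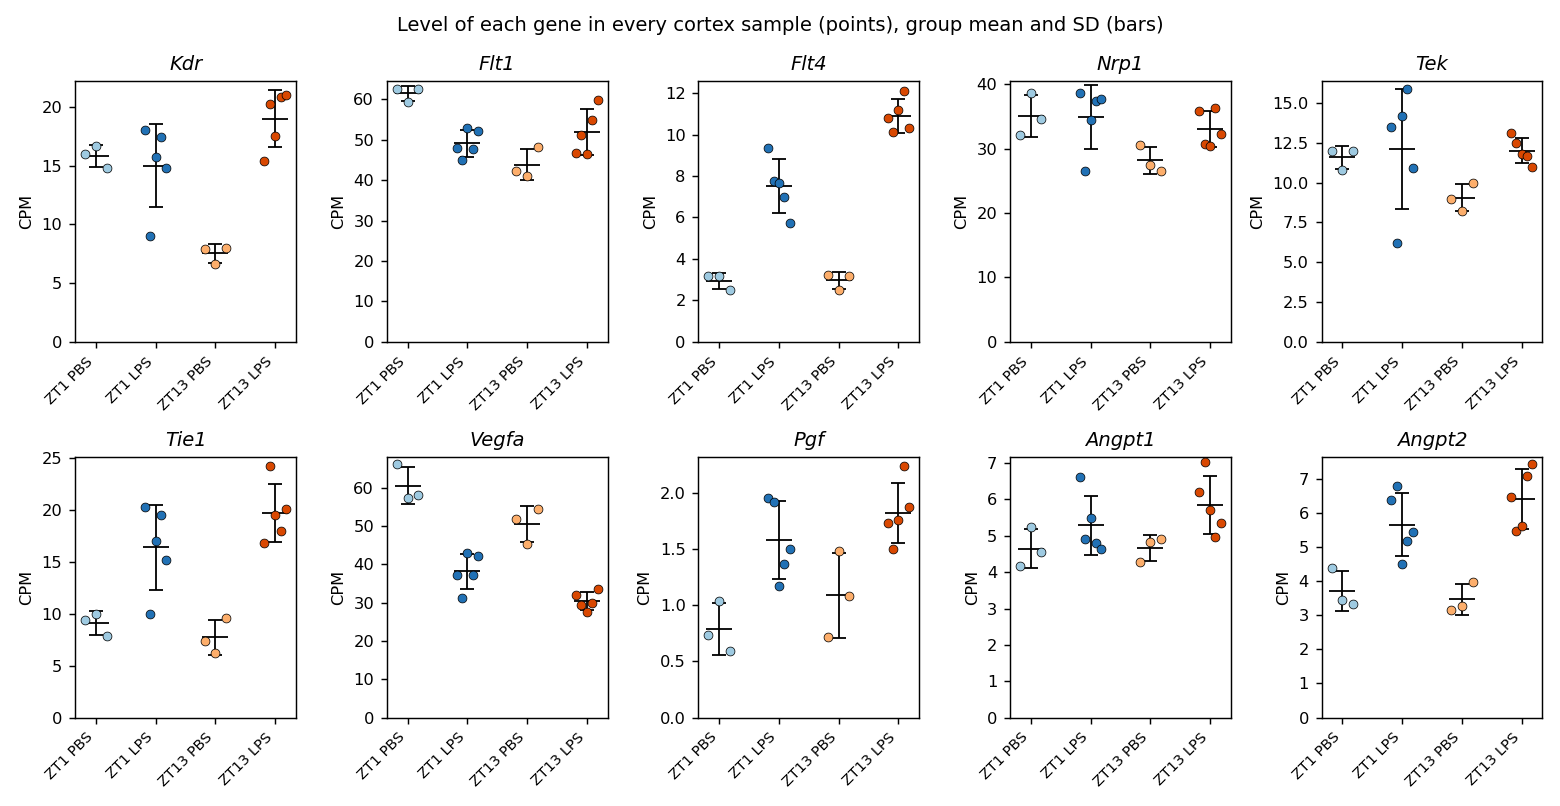
CPM (y axis, from 0) of each of the 10 genes in every mouse (points), by time and treatment, with bars for the group mean and SD. The 3 ZT13 PBS mice have the lowest *Kdr* values, 6.61 to 8.02 CPM, while *Flt4* separates all LPS from all PBS mice at both times.

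*Kdr* (ENSMUSG00000062960, chromosome 5 of GRCm38 from 75932827 to 75978458) carried the largest difference between times. Its level was 16, 16.7 and 14.8 CPM in the ZT1 PBS mice and 7.93, 6.61 and 8.02 CPM in the ZT13 PBS mice. After LPS it was 18, 9.04, 15.7, 17.4 and 14.8 CPM at ZT1 and 15.4, 20.2, 17.5, 20.8 and 21 CPM at ZT13. The ZT13 PBS mice were thus below every other mouse, and the ZT1 PBS values overlapped those of both LPS groups. Relative to PBS, *Kdr* had a log2 fold change of -0.11 (SE 0.18, 95% interval -0.51 to 0.28, adjusted p = 0.72) at ZT1 and 1.27 (SE 0.11, adjusted p = 7.8e-07) at ZT13, a 2.42-fold rise.

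The TOD × treatment interaction, the LPS response at ZT13 minus that at ZT1, was 1.39 for *Kdr* (SE 0.23, 95% interval 0.91 to 1.86, adjusted p = 0.013) on the log2 scale. Over all genes, 0.122% had a positive interaction past the threshold and 0.159% an interaction of either sign. The interaction equals the difference between times in LPS mice minus that in PBS mice, and the larger of these was in PBS mice, lower at ZT13 by a log2 difference of -1.03 (SE 0.10, adjusted p = 0.0034). The difference in LPS mice was 0.36 (SE 0.16, 95% interval 0.02 to 0.69, adjusted p = 0.43). *Kdr* and *Flt1* were the 2 members lower at ZT13 in PBS mice, where 0.217% of all genes were lower. These comparisons share the ZT13 PBS samples, so they are not independent of each other. The interaction lost its call without ZT1 PBS replicate 1 (adjusted p = 0.051), ZT1 PBS replicate 2 (0.055) or ZT13 PBS replicate 2 (0.069), at log2 values of 1.30 to 1.38. Over the alternatives that kept all mice its adjusted p was at most 0.073 and that of the PBS difference at most 0.071, each without an intensity trend.

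*Flt1* (ENSMUSG00000029648, chromosome 5 from 147561604 to 147726011) changed in opposite directions after LPS at the 2 times. It was at 62.6, 59.4 and 62.5 CPM in ZT1 PBS mice and at 47.9, 44.9, 53, 47.7 and 52.1 CPM in ZT1 LPS mice, with no overlap. At ZT13 the PBS mice were at 42.2, 41.1 and 48.2 CPM and the LPS mice at 46.8, 51.2, 46.4, 54.8 and 59.8 CPM, and these groups overlapped. The ZT1 PBS mice stood above all others except ZT13 LPS replicate 5, which exceeded 1 of them. On the log2 scale the change was -0.32 (SE 0.06, adjusted p = 0.0036) at ZT1 and 0.24 (SE 0.08, adjusted p = 0.044) at ZT13.

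The interaction of *Flt1* was 0.56 (SE 0.11, 95% interval 0.33 to 0.79, adjusted p = 0.044), close to the threshold. In PBS mice *Flt1* was lower at ZT13 by a log2 difference of -0.49 (SE 0.06, adjusted p = 0.013), and in LPS mice the difference was 0.07 (SE 0.07, adjusted p = 0.81). The interaction passed in 4 of the 16 fits that each left out 1 mouse, those without ZT1 LPS replicate 1, ZT13 PBS replicate 3 and ZT13 LPS replicates 1 and 3, and in the other 12 the adjusted p was 0.056 to 0.17. The rise at ZT13 was lost without ZT13 PBS replicate 1 or 2 or ZT13 LPS replicate 2, 4 or 5 (adjusted p = 0.064 to 0.18), and with median-of-ratios factors (log2 0.18, adjusted p = 0.12). The PBS difference was lost without any of the 3 ZT1 PBS mice or without ZT13 PBS replicate 2 (adjusted p = 0.053 to 0.1). With all mice kept, the highest adjusted p over the alternatives was 0.15 for the interaction and 0.2 for the PBS difference.

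*Flt4* (ENSMUSG00000020357, chromosome 11 from 49609263 to 49652739) had the largest rise after LPS among the 10 genes at each time. It was at 3.16, 3.16 and 2.48 CPM in ZT1 PBS mice and at 3.23, 2.5 and 3.18 CPM in ZT13 PBS mice. In ZT1 LPS mice it was at 9.33, 7.74, 7.66, 7 and 5.75 CPM, and in ZT13 LPS mice at 10.8, 10.1, 11.2, 12.1 and 10.3 CPM. Every LPS mouse exceeded every PBS mouse, and every ZT13 LPS mouse exceeded every ZT1 LPS mouse. LPS against PBS gave a log2 fold change of 1.21 (SE 0.14, adjusted p = 0.00021) at ZT1 and 1.72 (SE 0.10, adjusted p = 3e-08) at ZT13, folds of 2.32 and 3.29.

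No member passed the test between ZT13 LPS and ZT1 LPS mice, where 0.0212% of all genes did. *Flt4* had a log2 difference of 0.52 (SE 0.11, unadjusted p = 0.00026, adjusted p = 0.089), and 3 of the 10 had an unadjusted p under 0.05, the others being *Kdr* and *Vegfa* (0.039 and 0.002), where 10.6% of all genes did. A fit of all 16 samples together called *Flt4*, where 114 of the 18859 genes tested were higher and 8 lower. Sample quality weights called *Flt4* and *Vegfa*, where 203 of all genes were higher and 22 lower. Without ZT1 LPS replicate 1, *Flt4* passed (adjusted p = 0.013), where 317 of all genes were higher and 28 lower. The main fit called 2 higher and 2 lower, so calls over all genes grew in each of these fits. *Flt4* was the 1 member of 10 whose LPS groups did not overlap between times, where 1.55% of all genes were higher at ZT13 with no overlap. Its interaction was 0.51 (SE 0.18, adjusted p = 0.35).

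*Nrp1* (ENSMUSG00000025810, chromosome 8 from 128358604 to 128503363) varied little between groups. Its level was 32.1, 38.7 and 34.6 CPM in ZT1 PBS, 38.6, 26.5, 34.4, 37.4 and 37.7 CPM in ZT1 LPS, 30.6, 27.4 and 26.6 CPM in ZT13 PBS and 35.8, 30.7, 30.5, 36.4 and 32.3 CPM in ZT13 LPS mice. The 3 ZT13 PBS values were below those of the ZT1 PBS mice (log2 difference -0.31, SE 0.08, adjusted p = 0.13). The LPS log2 fold change was -0.02 (SE 0.11, 95% interval -0.26 to 0.23, adjusted p = 0.94) at ZT1 and 0.23 (SE 0.07, adjusted p = 0.028) at ZT13. The rise at ZT13 was lost without ZT13 PBS replicate 2 or 3 or ZT13 LPS replicate 1 or 4 (adjusted p = 0.061 to 0.12), and with median-of-ratios factors (log2 0.17, adjusted p = 0.073). An exon of *Nrp1* overlaps the microRNA gene *Mir1903* on the same strand, and how reads there were assigned is not given in the sources used here.

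The angiopoietin receptors parted after LPS, with *Tie1* higher at both times and *Tek* higher at ZT13. *Tie1* (ENSMUSG00000033191, chromosome 4 from 118471191 to 118490061) was at 9.42, 10 and 7.83 CPM in ZT1 PBS and at 20.3, 9.98, 17, 19.5 and 15.2 CPM in ZT1 LPS mice. At ZT13 it was at 7.4, 6.2 and 9.54 CPM in PBS and at 16.8, 24.2, 19.5, 18 and 20.1 CPM in LPS mice. All LPS mice except ZT1 LPS replicate 2 were above all PBS mice. The log2 fold change of *Tie1* was 0.78 (SE 0.19, adjusted p = 0.017) at ZT1 and 1.31 (SE 0.13, adjusted p = 3.9e-06) at ZT13, and the interaction was 0.52 (SE 0.25, 95% interval -0.01 to 1.06, adjusted p = 0.55). The ZT1 call was lost without ZT1 PBS replicate 1 (adjusted p = 0.057) or 3 (0.09).

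*Tek* (ENSMUSG00000006386, chromosome 4 from 94739289 to 94874976) was at 12, 10.8 and 12 CPM in ZT1 PBS and 13.5, 6.22, 14.2, 15.9 and 10.9 CPM in ZT1 LPS mice. It was at 9, 8.23 and 9.95 CPM in ZT13 PBS and 13.1, 12.5, 11.8, 11.7 and 11 CPM in ZT13 LPS mice. The ZT1 LPS mice spread on both sides of their controls, while at ZT13 the groups did not overlap. The log2 fold change was 0.00 (SE 0.23, 95% interval -0.51 to 0.51, adjusted p = 1) at ZT1, with a sign that changed between scalings, and 0.39 (SE 0.08, adjusted p = 0.003) at ZT13. A fit of all 16 samples together did not call the ZT13 rise (adjusted p = 0.14). The interaction was 0.39 (SE 0.27, adjusted p = 0.72).

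**Figure D2:**
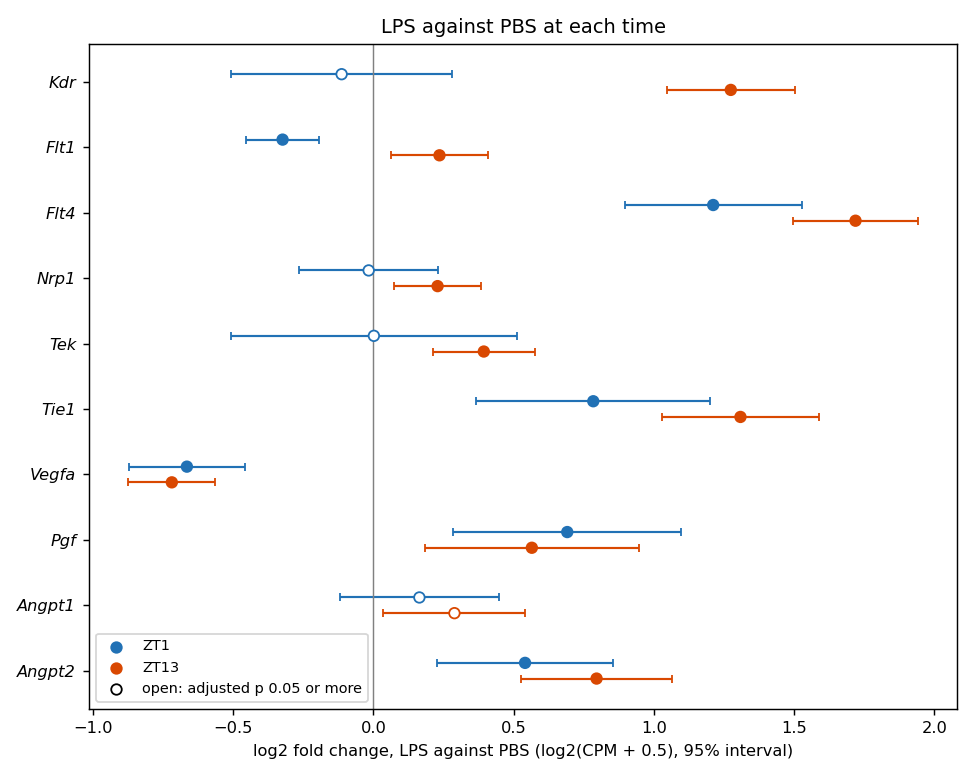
log2 fold change of LPS against PBS mice (x axis, CPM plus 0.5) for each gene at ZT1 (blue) and ZT13 (orange), with 95% intervals; open points have an adjusted p of 0.05 or more. *Vegfa* lies left of 0 at both times, -0.67 and -0.72, while *Kdr* moves from -0.11 at ZT1 to 1.27 at ZT13.

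Among the ligands, *Vegfa* fell after LPS at both times. *Vegfa* (ENSMUSG00000023951, chromosome 17 from 46016993 to 46032369) was at 66.2, 57.4 and 58.1 CPM in ZT1 PBS and 37.2, 31.3, 42.9, 37.3 and 42.1 CPM in ZT1 LPS mice. At ZT13 it was at 51.9, 45.3 and 54.6 CPM in PBS and 32, 29.4, 27.6, 30 and 33.7 CPM in LPS mice. Every LPS mouse was below every PBS mouse. The log2 fold change was -0.67 (SE 0.09, adjusted p = 0.00075) at ZT1 and -0.72 (SE 0.07, adjusted p = 4.6e-06) at ZT13. The interaction was -0.05 (SE 0.13, 95% interval -0.32 to 0.22, adjusted p = 0.95). *Vegfa* had lower values at ZT13 in both treatments, with log2 differences of -0.26 (adjusted p = 0.2) in PBS and -0.31 (adjusted p = 0.18) in LPS mice.

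*Pgf* (ENSMUSG00000004791, chromosome 12 from 85166635 to 85177790) was the lowest of the 10 in CPM, and rose after LPS. It was at 0.74, 1.04 and 0.589 CPM in ZT1 PBS, 1.96, 1.92, 1.17, 1.37 and 1.5 CPM in ZT1 LPS, 0.721, 1.48 and 1.08 CPM in ZT13 PBS and 1.73, 1.5, 1.76, 2.24 and 1.88 CPM in ZT13 LPS mice. The LPS values lay above the PBS values of the same time, by a small margin at ZT13. The log2 fold change was 0.69 (SE 0.19, adjusted p = 0.027) at ZT1 and 0.56 (SE 0.18, adjusted p = 0.028) at ZT13. The ZT1 call was lost without ZT1 PBS replicate 1 or 3 or ZT1 LPS replicate 1 (adjusted p = 0.056 to 0.12), and the ZT13 call without ZT13 PBS replicate 1 or 3 or ZT13 LPS replicate 4 (0.066 to 0.15).

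*Angpt2* (ENSMUSG00000031465, chromosome 8 from 18690263 to 18741562) rose at both times. It was at 4.39, 3.46 and 3.33 CPM in ZT1 PBS, 6.39, 6.8, 4.5, 5.18 and 5.44 CPM in ZT1 LPS, 3.15, 3.28 and 3.99 CPM in ZT13 PBS and 6.47, 5.46, 5.62, 7.09 and 7.43 CPM in ZT13 LPS mice. All LPS mice were above all PBS mice. Its log2 fold change was 0.54 (SE 0.14, adjusted p = 0.025) at ZT1 and 0.80 (SE 0.12, adjusted p = 0.00026) at ZT13. The ZT1 call was lost without ZT1 PBS replicate 2 or 3 or ZT1 LPS replicate 1 (adjusted p = 0.053 to 0.11).

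*Angpt1* (ENSMUSG00000022309, chromosome 15 from 42424723 to 42676977) did not pass the test on CPM in any comparison. Its values were 4.16 to 5.24 CPM in ZT1 PBS, 4.63 to 6.63 CPM in ZT1 LPS, 4.27 to 4.92 CPM in ZT13 PBS and 4.96 to 7.03 CPM in ZT13 LPS mice. The log2 fold change was 0.16 (SE 0.13, 95% interval -0.12 to 0.45, adjusted p = 0.44) at ZT1 and 0.29 (SE 0.12, 95% interval 0.04 to 0.54, adjusted p = 0.085) at ZT13. An exon of *Angpt1* overlaps the antisense gene *Gm17473*, and whether counting used strand is not given in the sources used here.

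Counted by mice whose ranges did not overlap, LPS separated 3 members upwards and 2 downwards at ZT1, where 15.9% and 8.41% of all genes did. At ZT13 the counts were 7 and 1, where 20.9% and 10.3% did. Between the PBS groups 5 members were lower at ZT13 with no overlap, *Kdr*, *Flt1*, *Tek*, *Nrp1* and *Vegfa*, where 9.21% of all genes were. None was higher.

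**Figure D3:**
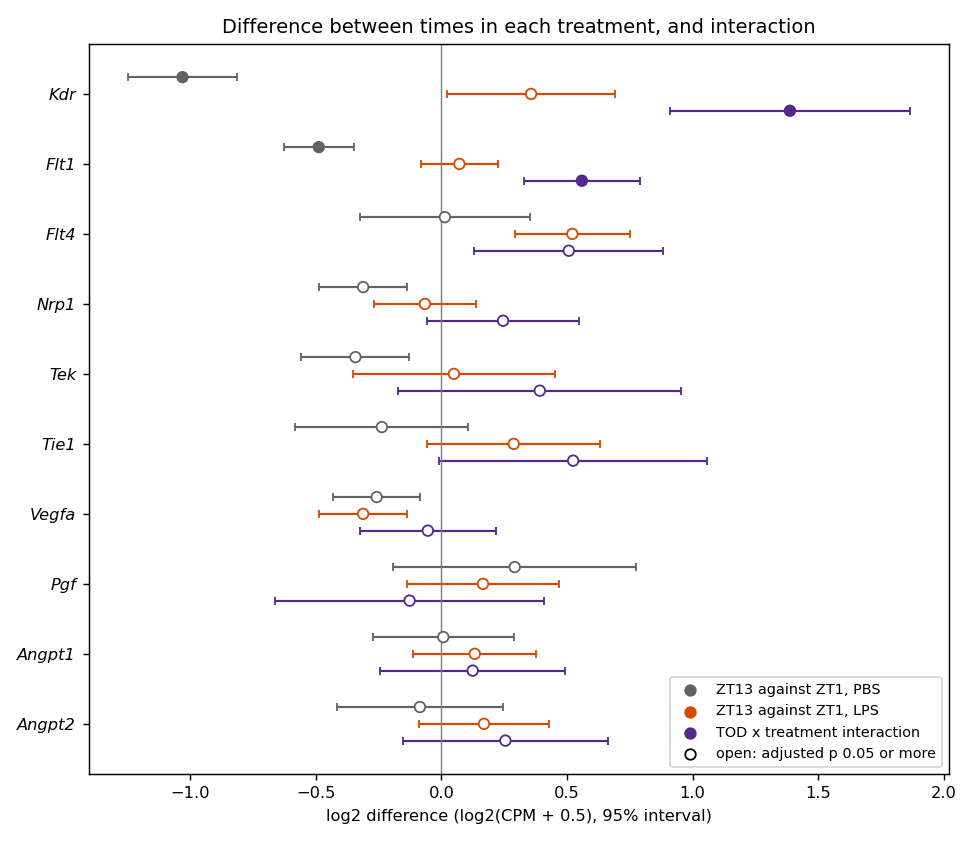
log2 difference between ZT13 and ZT1 (x axis, CPM plus 0.5) in PBS mice (grey) and LPS mice (orange), and the TOD × treatment interaction (purple), for each gene with 95% intervals; open points have an adjusted p of 0.05 or more. The filled points belong to *Kdr* (-1.03 in PBS, interaction 1.39) and *Flt1* (-0.49 and 0.56).

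The ratios of paired members are given as a description, with no test. The *Flt1*/*Kdr* ratio of CPM was 3.56 to 4.22 in ZT1 PBS, 2.66 to 4.96 in ZT1 LPS, 5.32 to 6.21 in ZT13 PBS and 2.53 to 3.04 in ZT13 LPS mice. Every ZT13 PBS mouse had a higher ratio, and every ZT13 LPS mouse a lower one, than any ZT1 PBS mouse. *Tie1*/*Tek* was 0.65 to 0.931 in ZT1 PBS and 0.753 to 0.959 in ZT13 PBS, and 1.2 to 1.6 and 1.28 to 1.92 in the LPS groups. All 10 LPS mice thus had more *Tie1* than *Tek* reads, and all 6 PBS mice fewer, ZT1 LPS replicate 2 included (1.6). *Angpt2*/*Angpt1* was 0.659 to 1.05 and 0.68 to 0.811 in the PBS groups and 0.819 to 1.39 and 0.776 to 1.43 in the LPS groups, with overlap at both times. *Pgf*/*Vegfa* was far below 1 in all mice, at 0.0102 to 0.0327 in PBS and 0.0272 to 0.0745 in LPS mice.

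**Figure D4:**
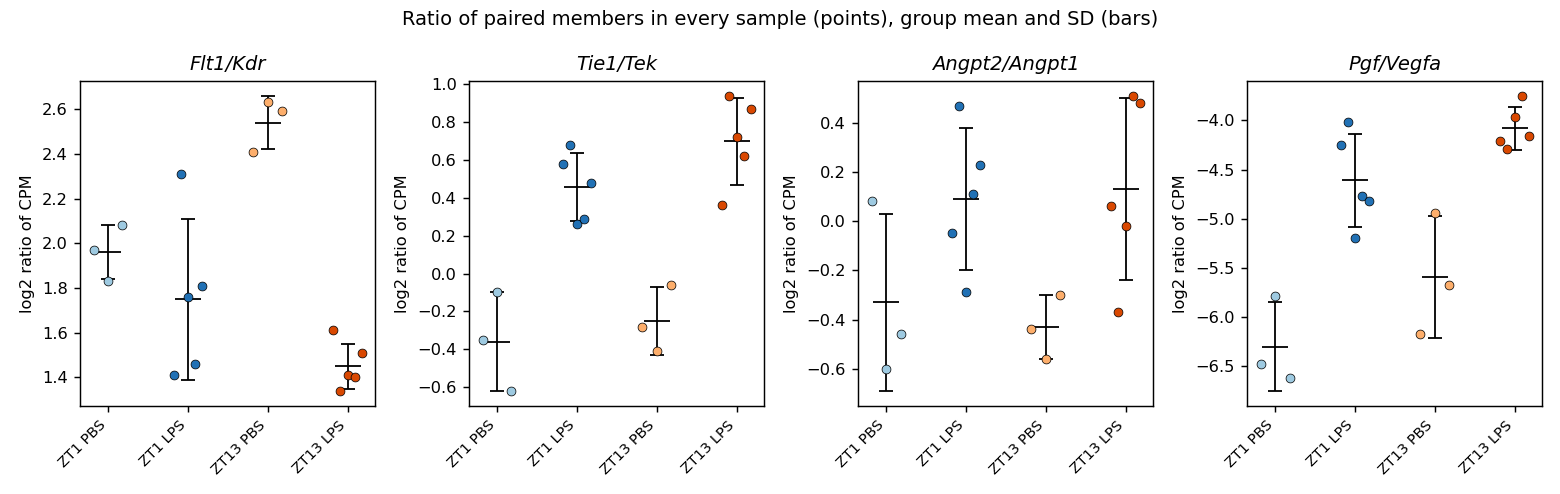
log2 ratio of CPM (y axis) for 4 pairs of members in every mouse (points), with bars for the group mean and SD. The *Flt1*/*Kdr* ratio is highest in ZT13 PBS mice (mean log2 2.54) and lowest in ZT13 LPS mice (1.45), and *Tie1*/*Tek* is below 0 in all PBS mice and above 0 in all LPS mice.

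Levels of different genes were compared per kilobase of exon length. *Vegfa* led in every group, at 14.1 ± 1.15 CPM per kilobase (SD, n = 3) in ZT1 PBS and 7.13 ± 0.553 (SD, n = 5) in ZT13 LPS mice. In ZT1 PBS mice *Flt1* (4.56 ± 0.136), *Nrp1* (3.59 ± 0.338) and *Tek* (2.46 ± 0.153) followed in CPM per kilobase, without overlap of their ranges. *Tie1* (1.85 ± 0.23) and *Kdr* (1.75 ± 0.105) overlapped each other, as did *Angpt2* with *Angpt1* and *Flt4* with *Pgf*, the lowest at 0.272 ± 0.0785. In ZT13 LPS mice *Tie1* stood next to *Vegfa*, at 4.01 ± 0.57, with a range that overlapped *Flt1* (3.84 ± 0.42). *Kdr* was the sixth gene in every group except ZT13 PBS, where at 0.833 ± 0.0872 it was the eighth and its range overlapped *Angpt1*.

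The receptors were then set against other endothelial transcripts of the same sample. In bulk tissue, fewer cells of a type and less RNA per cell cannot be told apart. A panel of 15 endothelial genes with no member among them (*Pecam1*, *Cdh5*, *Cldn5* and others) summed to 256 to 257 CPM in ZT1 PBS, 246 to 294 in ZT13 PBS, 380 to 492 in ZT1 LPS and 465 to 511 CPM in ZT13 LPS mice. Of the 15, 12 rose after LPS at each time, and *Itm2a* fell at ZT13. The panel holds genes with a difference between times of their own: *Cldn5*, *Cdh5*, *Egfl7* and *Pecam1* had a positive interaction past the threshold, *Cldn5* was lower and *Slc2a1* higher at ZT13 in PBS mice. The mean of the panel on the log2 scale was 3.69 in ZT1 PBS, 3.61 in ZT13 PBS, 4.35 in ZT1 LPS and 4.54 in ZT13 LPS mice.

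Relative to this mean, most of the transcriptome was lower after LPS, 84.6% of all genes at ZT1 and 92.0% at ZT13, while 2.66% and 3.29% were higher. Of the members, 1 was higher and 6 were lower at ZT1, and 3 were higher and 5 lower at ZT13. *Flt4* was higher at both times, with log2 differences of 0.56 (SE 0.16, adjusted p = 0.0024) and 0.79 (SE 0.12, adjusted p = 7e-06). At ZT13 *Tie1* (0.38, SE 0.11, adjusted p = 0.0048) and *Kdr* (0.34, SE 0.11, adjusted p = 0.008) were higher too, both calls being lost without ZT13 PBS replicate 2 (adjusted p = 0.052 for each). *Kdr* was lower relative to the panel at ZT1, at -0.77 (SE 0.14, adjusted p = 2.6e-05). *Flt1*, *Tek*, *Nrp1*, *Vegfa* and *Angpt1* were lower relative to the panel at both times, by log2 differences of -0.49 to -1.32 at ZT1 and -0.54 to -1.65 at ZT13, so the rises of *Flt1*, *Tek* and *Nrp1* at ZT13 were smaller than that of the panel.

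The difference of *Kdr* between times remained on this scale. In PBS mice it was lower at ZT13 by a log2 difference of -0.95 (SE 0.11, adjusted p = 0.0002), and *Flt1* by -0.41 (SE 0.07, adjusted p = 0.0078), where 0.117% of all genes were lower relative to the panel. The *Flt1* call was lost without ZT1 PBS replicate 1 (adjusted p = 0.052). The interaction of *Kdr* relative to the panel was 1.11 (SE 0.18, 95% interval 0.74 to 1.48, adjusted p = 0.0058), where 0.0265% of all genes had a positive interaction past the threshold. That of *Flt1* was 0.28 (SE 0.15, 95% interval -0.03 to 0.59, adjusted p = 0.2). Without ZT13 PBS replicate 2 the interaction of *Kdr* relative to the panel was at the threshold (1.04, adjusted p = 0.05). No member passed limma's test between LPS mice of the 2 times relative to the panel, where 0.106% of all genes did, and 3 of the 10, *Vegfa*, *Flt4* and *Nrp1*, had an unadjusted p under 0.05 (7.1e-05, 0.014 and 0.015), where 28.2% of all genes did. *Vegfa*, lower at ZT13 by a log2 difference of -0.51 (SE 0.11), missed the threshold narrowly (adjusted p = 0.051), and passed in 7 of 10 fits that kept all mice and without ZT1 LPS replicate 1 (0.0087), ZT1 LPS replicate 4 (0.027) or ZT13 LPS replicate 5 (0.021). The panel mean was itself higher in ZT13 LPS mice, and the median difference of all genes relative to it was -0.18. On CPM the difference of *Vegfa* was -0.31 (adjusted p = 0.18). Among the fits that called *Vegfa*, sample quality weights called 633 of all genes higher and 7438 lower, and the replicate block 150 and 179. Without ZT1 LPS replicate 1 these were 175 and 1230, against 14 and 6 in the main fit.

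**Figure D5:**
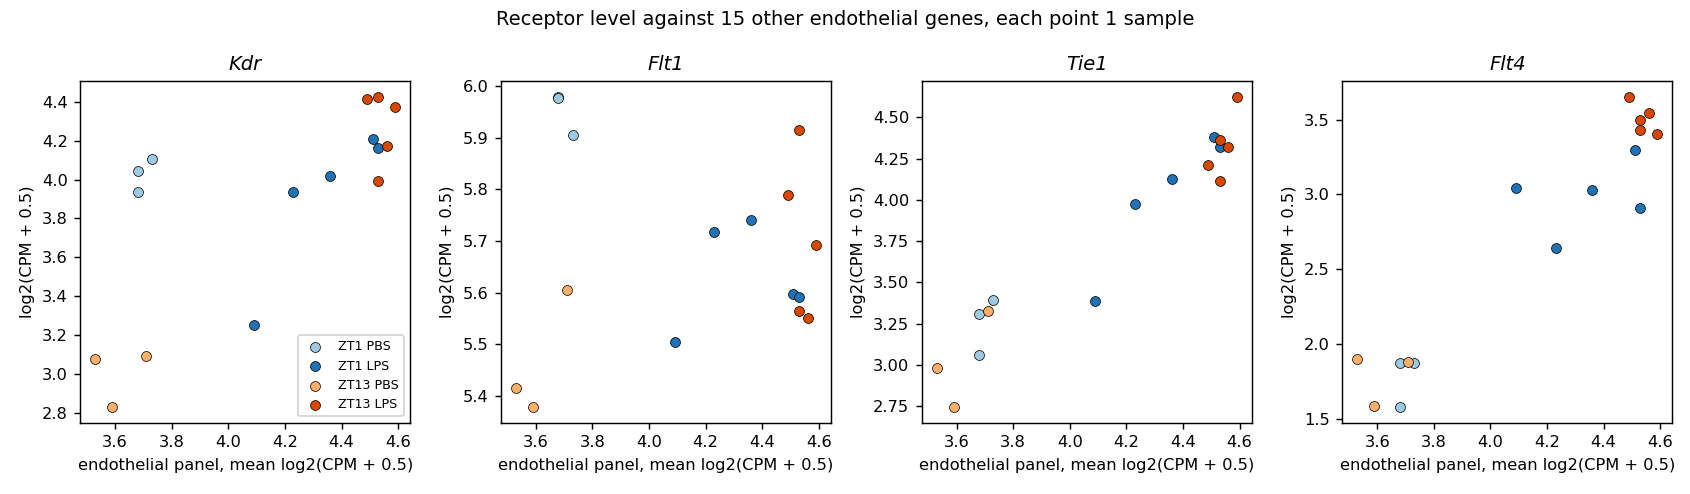
log2(CPM + 0.5) of 4 receptors (y axes, each with its own range) against the mean log2(CPM + 0.5) of 15 other endothelial genes (x axis), each point 1 mouse, coloured by group. The 3 ZT13 PBS mice lie below the 3 ZT1 PBS mice for *Kdr* at similar panel levels, with group means of 3.61 and 3.69, and all 10 LPS mice lie to the right of all PBS mice, from 4.09 to 4.59.

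ZT1 LPS replicate 2 was low for most of these genes. It was the lowest of its group of 5 for 6 of the 10 members and for 11 of the 15 panel genes, but the highest for *Angpt2* and for the panel genes *Mfsd2a* and *Ly6c1*. It had the lowest choroid plexus sum of all samples, 11.5 CPM. Without it the interaction of *Kdr* had an adjusted p of 0.0013 and that of *Flt1* 0.064. Neutrophil markers (*S100a8*, *S100a9*, *Ly6g*, *Camp* and *Retnlg*) summed to 0.168 to 0.69 CPM in PBS mice and 7.83 to 72.9 CPM in LPS mice, with *Ly6g* listed at 0 in all PBS mice. The pericyte sum of 7 genes, at 153 to 201 CPM over all mice, overlapped between groups, as did the astrocyte sum of 6 genes at 4437 to 4899 CPM. The sums hid changes of single genes. Of the 7 pericyte genes, 2 rose at ZT1 and 3 at ZT13. Of the 6 astrocyte genes, 3 rose at ZT1, and 4 rose and 1 fell at ZT13. Microglial markers, 5 genes, summed to 168 to 190 CPM in PBS and 192 to 309 CPM in LPS mice, with 4 that rose and 1 that fell at each time. Of all genes, 11.1% rose and 5.15% fell at ZT1, and 19.2% and 9.40% at ZT13. Sums of 4 meningeal fibroblast genes were 41.2 to 65 CPM in PBS and 68.9 to 83.7 CPM in LPS mice, and those of 6 neuronal genes 4432 to 4782 and 4101 to 4418 CPM. The part of these cell types in the members' differences was not tested.

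Other genes of the pathways were followed in 4 lists that held 41 gene symbols, of which 36 were tested. The lists were VEGF family and co-receptors, receptor partners and adaptors, the hypoxia-inducible factor arm, and VEGF and FOXO1 target genes. The symbol *Figf*, listed beside *Vegfd*, was absent from the data. After LPS, 4 of the 36 rose and 5 fell at ZT1, where 11.1% of all genes rose and 5.15% fell. At ZT13, 12 rose and 4 fell, where 19.2% of all genes rose and 9.40% fell, so the share that rose at ZT1 and the share that fell at ZT13 were near those of all genes. The median log2 fold changes of the 36 were 0.05 and 0.09, against 0.04 and 0.05 over all genes. *Nos3*, the endothelial nitric oxide synthase downstream of VEGFR2, rose by 1.26 (SE 0.09, adjusted p = 6.4e-06) at ZT1 and 1.67 (SE 0.09, adjusted p = 7.8e-09) at ZT13 on the log2 scale. *Adamts1*, a secreted protease, rose by 1.21 (SE 0.21, adjusted p = 0.0023) and 1.64 (SE 0.14, adjusted p = 1.1e-06). *Apln*, which encodes a peptide made by endothelial tip cells, fell at ZT1 (log2 fold change -1.32, SE 0.28, adjusted p = 0.0077), where PBS mice were at 13.5 ± 1.04 CPM (SD, n = 3) and LPS mice at 5.46 ± 2.24 CPM (SD, n = 5), and was at -0.18 (adjusted p = 0.35) at ZT13. *Nr4a1*, an immediate early gene, fell at both times, by -0.58 (SE 0.16, adjusted p = 0.031) and -0.80 (SE 0.28, adjusted p = 0.044). Its PBS and LPS ranges overlapped at both times, and at ZT13 were 91.6 to 256 and 61.9 to 123 CPM. Which cells of the bulk cortex the *Nr4a1* reads came from was not tested. *Sema3a*, a neuropilin ligand, was lower at ZT13 by -0.28 (adjusted p = 0.0048).

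Of the 36, *Dll4* and *Mef2c* had an interaction past the threshold, as did 0.159% of all genes. *Dll4*, the Notch ligand that VEGF signalling induces in tip cells, was at 3.9, 3.6 and 3.12 CPM in ZT1 PBS and 1.33, 1.53 and 1.43 CPM in ZT13 PBS mice, without overlap. After LPS it was at 2.52, 3.54, 2.4, 2.58 and 2.31 CPM at ZT1 and 2.52, 2.79, 2.6, 3.56 and 3.27 CPM at ZT13. Its interaction was 1.19 (SE 0.19, adjusted p = 0.013) and its PBS difference -1.06 (SE 0.14, adjusted p = 0.016), beside 1.39 and -1.03 for *Kdr*. *Mef2c*, a transcription factor of both endothelium and neurons, had an interaction of -0.29 (SE 0.06, adjusted p = 0.039) at 514 to 674 CPM. Of the 8 genes of the hypoxia-inducible factor arm, which controls *Vegfa* under low oxygen, limma called 0 at ZT1. There 3 of the 8 had an unadjusted p under 0.05 by limma, where 5716 of the 18859 genes tested did. At ZT13, 2 of the 8 rose, beside the 19.2% of all genes that rose there.

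The genes most like a member over the 16 samples, by Pearson's r of log2(CPM + 0.5), are given as a description, since all points share the group structure. For *Kdr* they were *Hdac7* (0.930), *Zfp710* (0.923) and *Ddx23* (0.916). For *Tek* they were *Rassf9* (0.903), *Ptprb* (0.898), which encodes the phosphatase that acts on TIE2, and *Prox1* (0.887). For *Vegfa* they were *Cryab* (0.963), *Ndrg1* (0.956) and *Wscd1* (0.954), and for *Angpt2* they were *Fryl* (0.952), *Adamts9* (0.947) and *Agt* (0.944).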

How the data were processed

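Cortex RNA of 16 mice was sequenced after ribosomal RNA depletion. The authors deposited CPM, reads per gene scaled to 1000000 per sample. The submitters' processing notes name DRAGEN (4.0.3-8), bcl2fastq and GRCm38; counting settings are not given in the sources used here. Of 55774 lines, 287 repeats were removed, leaving 55487 genes. Low values were not whole reads often enough to recover counts, so no count test was run.

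Samples were grouped by title. CPM plus 0.5 was taken to log2 for the 18859 genes that reached 1 CPM in 3 or more samples. These genes were fitted with limma 3.58.1 (R 4.3.3, intensity trend, Benjamini-Hochberg over all genes, threshold 0.05). The fit was run on simulated data with independent noise in each gene. That check does not cover effects shared by many genes of a sample. Pairwise comparisons used their 2 groups and the interaction all 16 samples. Values relative to the endothelial panel subtract its mean log2 value in each sample. Replicate numbers are not known to pair the mice and were not used as pairs. Same-numbered samples had residual correlations of -0.20 to 0.33. Other pairs of samples were not compared, so this range cannot show whether the mice were paired. Members, gene lists and motifs were chosen with earlier results of these data known, and the ETS core after its matches were seen. Named pathway genes were those called between times or in the interaction, and the 2 largest called rises and falls after LPS at each time. Alternatives were other pseudocounts (0.1 and 1), filters, scaling, models, a replicate block and leaving out each mouse. The 95% intervals are those of the limma fit and measure the spread between mice. Tables used pandas 2.3.3 and numpy 2.4.6 in Python 3.11.15, and figures matplotlib 3.10.9.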

Additional observations from a re-analysis of the deposited data

Results flagged for a closer look

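The LPS response at ZT13 minus that at ZT1 differed from 0 for *Kdr* (1.39 on the log2 scale) and *Flt1* (0.56), each by its interaction test. Of 20 groups of 5 LPS mice tested over the members for a sample far from the others, 0 had one, where chance gives about 1 in 20.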

How the results depend on the processing

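Among all genes with CPM above 0, the number of members called fell to 3 for LPS at ZT1, 0 between times in PBS mice and 0 for the interaction, and without an intensity trend it was 0 for each of the last pair. Of the 38565 genes with CPM above 0, 1167 were higher and 438 lower after LPS at ZT1. Between PBS groups 35 were higher and 30 lower, and 8 interactions were positive and 4 negative. Without the trend these were 3 and 0, and 9 and 2, of 18859 genes. Between times in LPS mice, a fit of all 16 samples called 1 and sample quality weights 2. Over all genes these fits called 114 higher and 8 lower, and 203 and 22, against 2 and 2 in the main fit. Relative to the panel, the count between times in PBS mice was 1 with a fit of all samples, 7 with sample quality weights and 0 without the trend, that of the interaction 5 with weights and 0 without the trend, and that in LPS mice 5 with weights and 1 with a pseudocount of 1, either filter, a fit of all samples, the replicate block or the choroid plexus covariate. The covariate was chosen after seeing the data. With weights relative to the panel, 4609 of the 18859 genes tested were higher and 800 lower between PBS groups. Between LPS groups 633 were higher and 7438 lower, and 583 interactions were positive and 9329 negative. Without the trend, 6 genes were higher and 0 lower between PBS groups, and 1 interaction was positive and 1 negative. The main fit gave 126 and 22 between PBS groups, 14 and 6 between LPS groups, and 5 and 4 interactions. The cause of these shifts was not tested. The replicate block gave 6 members at ZT1, 8 at ZT13, 2 between PBS groups, 0 between LPS groups and 2 for the interaction, and the numbers are not known to pair the mice. Over all genes the block gave 1688 higher and 949 lower at ZT1, and 3173 and 1507 at ZT13. It gave 34 and 23 between PBS groups, 2 and 1 between LPS groups, and 20 positive and 5 negative interactions. With the block, *Pgf* and *Flt1* lost their calls at ZT13 (adjusted p = 0.13 and 0.19) and *Angpt1* gained one (0.043). Relative to the panel, *Kdr* at ZT13 (0.084) and *Angpt1* at ZT1 (0.065) lost theirs, and *Pgf* at ZT13 (0.045) and *Vegfa* between times in LPS mice (0.0047) gained one.

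Leaving out 1 mouse, the count of members was 3 to 6 at ZT1, 6 to 9 at ZT13, 1 to 2 in PBS, 0 to 1 in LPS and 0 to 2 for the interaction, and relative to the panel 7 in all fits, 6 to 9, 1 to 2, 0 to 1 and 0 to 1. Calls over all genes moved in the same fits. At ZT1, 1299 were higher and 468 lower without ZT1 PBS replicate 1, and 2464 and 1294 without ZT1 LPS replicate 5. Between PBS groups these were 10 and 2 without ZT1 PBS replicate 2, and 34 and 53 without ZT13 PBS replicate 3. Without ZT1 LPS replicate 1, 317 were higher and 28 lower between LPS groups, and 90 interactions were positive and 14 negative. So the member counts alone do not measure how stable the members were.

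The values that changed sign were not called before or after the change (lowest adjusted p = 0.1 after it). For LPS at ZT1, *Tek* went to -0.0014 with a pseudocount of 0.1, -0.04 with median-of-ratios factors, -0.12 with the block and -0.04 with the covariate, and *Nrp1* to 0.01 with weights. In PBS mice, the covariate gave *Flt4* -0.05 and *Angpt1* -0.02, and in LPS mice weights gave *Tek* -0.11. Relative to the panel, *Pgf* at ZT1 went to -0.10 with a pseudocount of 1 and -0.21 with weights. In PBS mice *Flt4* went to -0.04 with weights and *Angpt2* to 0.0004 with a pseudocount of 1 and 0.02 with the covariate. In LPS mice *Pgf* went to 0.0045 with a pseudocount of 0.1 and 0.23 with weights, and *Angpt2* to 0.22 with weights. For the interaction weights gave *Tek* -0.04 and *Angpt2* 0.30, and the covariate *Nrp1* 0.01.

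Leaving out 1 mouse turned the sign of these: at ZT1 *Tek* (-0.11 to 0.21), *Nrp1* (-0.08 to 0.08) and *Kdr* (-0.19 to 0.05); in PBS mice *Flt4* (-0.08 to 0.12), *Angpt1* (-0.06 to 0.09) and *Angpt2* (-0.18 to 0.02); in LPS mice *Tek* (-0.16 to 0.16); in the interaction *Pgf* (-0.30 to 0.04) and *Vegfa* (-0.13 to 0.0027). Relative to the panel they were *Pgf* (-0.09 to 0.16) and *Angpt2* (-0.24 to 0.0040) at ZT1, *Flt4* (-0.0012 to 0.19) and *Angpt2* (-0.06 to 0.11) in PBS mice, *Pgf* (-0.11 to 0.09), *Angpt2* (-0.10 to 0.10) and *Tie1* (-0.01 to 0.15) in LPS mice, and *Tek* (-0.03 to 0.18), *Nrp1* (-0.12 to 0.07) and *Angpt2* (-0.14 to 0.11) in the interaction. Of 920 values of single genes under alternatives with all mice, 842 kept direction and side of the threshold, as did 868 of 960 with 1 mouse left out. Both totals include values that were not called in the main fit. Called values lost their call 29 times with all mice and 43 times with 1 mouse left out. Over all genes, 4 interactions were positive and 3 negative without ZT13 PBS replicate 2. At ZT13, 3086 genes were higher and 1243 lower without ZT13 PBS replicate 3, and 3678 and 1869 without ZT13 LPS replicate 5. Relative to the panel, 1589 were higher and 63 lower between PBS groups without ZT13 PBS replicate 3, and 67 and 24 without ZT13 PBS replicate 1.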
